A study of Mus musculus with 8 samples.

Results

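The transcripts described here are those of 10 genes of the YAP and TEAD system, taken by symbol from a deposited table of estimated counts in mouse lung adenocarcinoma cell lines. They are the coactivator Yap1, the DNA-binding partners Tead1, Tead2 and Tead4, and the reported target genes Ankrd1, Ctgf, Cyr61, Amotl2, Axl and Lats2. All 10 symbols were found among 23224 genes, and all 10 were among the 13318 that passed a filter on low counts. The genes were taken by name and not by a cut-off on the counts, but they were chosen with earlier results of these data known.

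Polyadenylated RNA was sequenced from 4 groups of 2 libraries, and the labels give KrasG12/+;Trp53-/- as the genotype of every line and DMEM with 10% FBS as the medium. Tmet stands for cells derived from a metastatic primary lung tumour, and its labels list no virus or shRNA. The other groups are Tnonmet cells, derived from a non-metastatic primary tumour, with virally delivered shRNAs against Nkx2-1, Foxa2 and Cdx2 together (the triple knockdown), against Nkx2-1 (shNkx2-1), or against luciferase (shControl). The labels do not say how many tumours or clones stand behind a group, nor whether the 2 libraries of a group are separate cultures, so the p-values measure only the spread between these libraries. Tmet differs from the others in tumour of origin as well as in virus treatment, and these cannot be told apart.

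YAP and its relative TAZ (gene Wwtr1) carry no DNA-binding domain and reach promoters and enhancers through TEAD proteins, which bind the motif CATTCC. The Hippo kinases, among them LATS1 and LATS2, phosphorylate YAP and TAZ, which keeps them in the cytoplasm and promotes their breakdown. Because that control acts on protein, the level of a Yap1 transcript does not report YAP activity, and transcripts such as Ctgf and Cyr61 are commonly read as its output. In lung, YAP and TAZ take part in airway branching and in repair of the alveolar epithelium.

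Promoter sequence is shown for Ankrd1, Cyr61, Amotl2 and Axl, reported targets whose RefSeq promoter holds the TEAD motif. The transcripts of Ankrd1, Amotl2 and Axl differed across the groups and that of Cyr61 did not pass. Each run gives the 250 bases before the annotated start, 5′ to 3′ on the gene's strand, from RefSeq on GRCm38.p6, which is not the build of the count table. Capitals mark CATTCC or its reverse complement GGAATG. The runs are Ankrd1 at chr19:36119845-36120094 (minus strand), Cyr61 at chr3:145649986-145650235 (minus strand), Amotl2 at chr9:102717554-102717803 (plus strand) and Axl at chr7:25788734-25788983 (minus strand).
Ankrd1: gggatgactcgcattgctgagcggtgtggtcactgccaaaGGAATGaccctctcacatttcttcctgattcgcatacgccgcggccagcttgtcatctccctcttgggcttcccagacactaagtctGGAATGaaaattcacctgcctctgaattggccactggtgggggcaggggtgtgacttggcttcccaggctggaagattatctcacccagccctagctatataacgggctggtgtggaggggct
Cyr61: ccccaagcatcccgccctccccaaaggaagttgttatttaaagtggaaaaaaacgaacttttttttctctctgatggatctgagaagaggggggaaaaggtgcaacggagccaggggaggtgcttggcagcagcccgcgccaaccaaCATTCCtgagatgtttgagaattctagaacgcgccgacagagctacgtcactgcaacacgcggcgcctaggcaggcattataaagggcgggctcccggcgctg
Amotl2: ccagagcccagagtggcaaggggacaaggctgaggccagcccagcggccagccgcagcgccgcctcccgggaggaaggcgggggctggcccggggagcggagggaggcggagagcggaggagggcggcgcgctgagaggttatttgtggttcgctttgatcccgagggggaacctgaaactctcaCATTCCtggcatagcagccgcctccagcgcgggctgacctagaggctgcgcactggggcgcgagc
Axl: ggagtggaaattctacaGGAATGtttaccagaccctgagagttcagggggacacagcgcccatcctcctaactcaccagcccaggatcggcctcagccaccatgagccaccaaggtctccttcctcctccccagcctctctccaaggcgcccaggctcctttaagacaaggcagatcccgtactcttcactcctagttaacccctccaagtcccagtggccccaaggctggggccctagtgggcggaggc

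RefSeq windows of 300 bases, from 250 before the start to 50 after it, were at hand for 7 of the 10 genes, in 8 windows because Lats2 has 2 annotated starts. No window was at hand for Tead1, Tead4 and Ctgf. The motif on either strand was found in 6 of the 8 windows, those of 6 different genes, whereas 4817 of 32851 windows in the whole table (14.7%) held it. Ankrd1 held it at 2 places, with the motif's leftmost base 210 and 123 bases before the start, which the table writes as -210 and -123. The position was -141 for Yap1, -103 for Cyr61, -65 for Amotl2 and -233 for Axl. For a start of Lats2 it was 5, with the first of the 50 bases counted as 1. The window of Tead2 and that of the other Lats2 start held no match. A match is a string of letters and was not tested for binding.

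**Figure D1:**
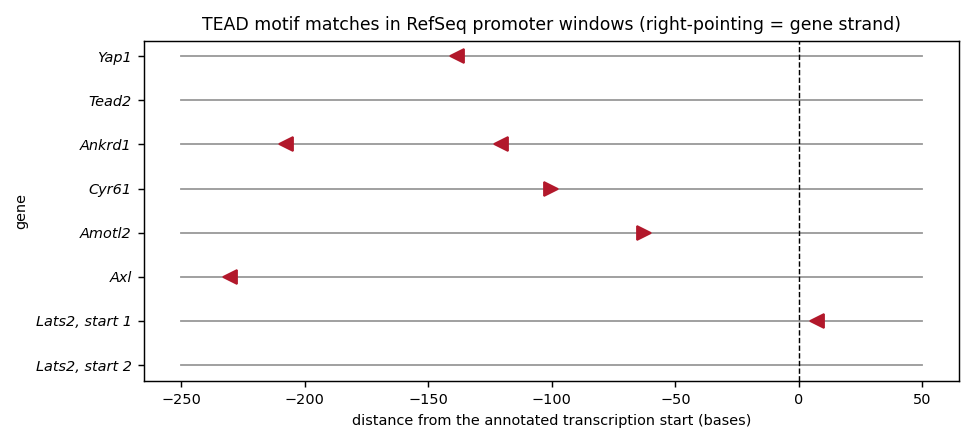
Positions of the 6-base TEAD motif in the RefSeq promoter windows, as distance in bases from the annotated start (dashed line). Triangles pointing right are CATTCC on the gene's strand and those pointing left are GGAATG. Ankrd1 has 2 matches and Tead2 none.

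Libraries held 14496995 to 21044835 estimated counts, and levels are in CPM (each library's counts scaled to a common total, with TMM factors of 0.943 to 1.03). A count of 3 corresponded to 0.151 to 0.2 CPM. Libraries of a group correlated across genes at r = 0.977 in Tmet and 0.993 to 0.995 in the other groups. The transcripts targeted by the shRNAs were lower where the labels name them. Nkx2-1 had 38.1 and 34 CPM in the triple knockdown and 37.7 and 44.8 CPM in shNkx2-1, against 76.4 and 68 CPM in shControl, and Cdx2 had 9.4 and 6.79 CPM in the triple knockdown against 98.5 and 111 CPM in shControl. Foxa2 had 34.1 and 28.2 CPM in the triple knockdown against 56.8 and 55.1 CPM in shControl. The log2 fold changes over shControl in the triple knockdown were -1 ± 0.15 for Nkx2-1 (adjusted p = 0.00273), -0.84 ± 0.15 for Foxa2 (0.00519) and -3.69 ± 0.17 for Cdx2 (1.59e-05). In shNkx2-1 that of Nkx2-1 was -0.81 ± 0.15 (0.0318), and Cdx2, not named in that label, was higher (0.79 ± 0.15, 0.0328). Both of these were lost without any library of shNkx2-1 or shControl (0.126 to 0.313) and with the replicate number as a block (0.0619 for Nkx2-1 and 0.0629 for Cdx2). That of Nkx2-1 was also lost without triple knockdown library 1 or 2 (0.0796 and 0.0791), and the Foxa2 call in the triple knockdown was lost without triple knockdown library 2 (0.0578). In Tmet all 3 transcripts were at 1.36 CPM or less.

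Of 5 epithelial markers tested, 3 were lower in Tmet than in shControl, and the other 2 did not pass. These were the keratins Krt19 and Krt8 and the adhesion protein E-cadherin (Cdh1). Their log2 fold changes were -3.66 ± 0.2 (adjusted p = 3.79e-06), -1.9 ± 0.23 (0.000251) and -8.23 ± 0.18 (1.11e-07). Of all tested genes, 57.3% passed in Tmet over shControl, 28.1% downward, so a called share of 3 of 5 is near its background. In the triple knockdown over shControl, 2 of the 5 rose (Cldn4 and Krt18) and 1 fell (Cdh1), where 24.4% of all tested genes passed. The calls of Krt18 and Cdh1 there were lost in several fits that left out 1 library. Epcam stayed at 0.676 CPM or less in every library. The summed level of 7 epithelial markers was 1436 to 2623 CPM in Tmet, 9204 to 10212 CPM in the triple knockdown, 6807 to 7317 CPM in shNkx2-1 and 7945 to 8216 CPM in shControl. Cdh1 itself had 3.17 and 3.32 CPM in Tmet, against 945 and 1005 CPM in shControl. The summed level of 9 fibroblast markers was 264 to 820 CPM in Tmet, mostly from the collagen genes Col1a1 and Col1a2, 20.1 to 20.2 CPM in the triple knockdown, 7.6 to 9.54 CPM in shNkx2-1 and 5.33 to 5.47 CPM in shControl. In Tmet, 6 of these 9 fibroblast markers exceeded the level of 3 counts, Lum was at 0 in all libraries, and Thy1 and Postn did not exceed 0.151 CPM. Of 7 leukocyte markers, 4 exceeded that level in 1 Tmet library and 1 in the other, with sums of 3.01 to 4.53 CPM in Tmet, 3.44 to 4.17 CPM in the triple knockdown, 1.41 to 1.76 CPM in shNkx2-1 and 1.53 to 1.96 CPM in shControl. Sums over 6 endothelial markers stayed under 1 CPM. The part of these markers in the differences below was not tested. In bulk RNA, fewer cells of a type and less RNA per cell cannot be told apart.

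Across the 4 groups, 9 of the 10 genes differed in level, with Cyr61 as the exception, and Ankrd1 had the smallest adjusted p. Of all 13318 genes tested, 63.6% differed across groups, so most of that count is shared with the background. The adjusted p here and below is from edgeR's quasi-likelihood test on 1 fit of the 8 libraries, with Benjamini-Hochberg adjustment over the 13318 genes, and a gene passed where it was under 0.05. For Ankrd1 it was 1.51e-05, for Tead2 0.00122, for Yap1 0.00271 and for Axl 0.00328. For Ctgf, Lats2, Tead4, Amotl2 and Tead1 it lay between 0.0102 and 0.0195, and for Cyr61 it was 0.271. Leaving out 1 library in turn left 7 to 9 genes past the threshold.

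Against shControl, all calls among the 10 genes were upward in each of the 3 other groups. In Tmet, 5 of 10 rose (Tead2, Tead4, Ankrd1, Axl and Lats2), where 57.3% of all tested genes passed, 29.2% upward and 28.1% downward. In the triple knockdown, 4 of 10 rose (Yap1, Tead4, Ankrd1 and Ctgf), where 24.4% of all tested genes passed, 12% upward and 12.4% downward. In shNkx2-1, Yap1 alone rose, where 3.55% of all tested genes passed, 2.17% upward and 1.38% downward. The share of the 10 genes called in Tmet is thus near its background, and the single call in shNkx2-1 is too few to read as a share. The median log2 fold change of the 10 genes was 0.46 in Tmet, 0.26 in the triple knockdown and 0.31 in shNkx2-1, beside 0.02, 0 and 0 over all tested genes. These 3 comparisons share the shControl libraries, so their directions are not independent of each other.

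The comparisons among the other groups separated the set further. Tmet against the triple knockdown gave 4 genes higher (Tead1, Tead2, Axl and Lats2) and 3 lower (Yap1, Ankrd1 and Ctgf), where 48.1% of all tested genes passed, 24% upward and 24.1% downward. Tmet against shNkx2-1 gave 5 higher (Tead1, Tead2, Ankrd1, Axl and Lats2) and 2 lower (Yap1 and Amotl2), where 58.1% of all tested genes passed, 29.3% upward and 28.8% downward. The triple knockdown against shNkx2-1 gave Ankrd1 higher and Amotl2 lower, where 20.4% of all tested genes passed, 9.27% upward and 11.1% downward. The medians of the 10 genes in these comparisons were 0.01, 0.68 and 0.08 on the log2 scale, beside 0.02, 0 and 0 over all tested genes.

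**Figure D2:**
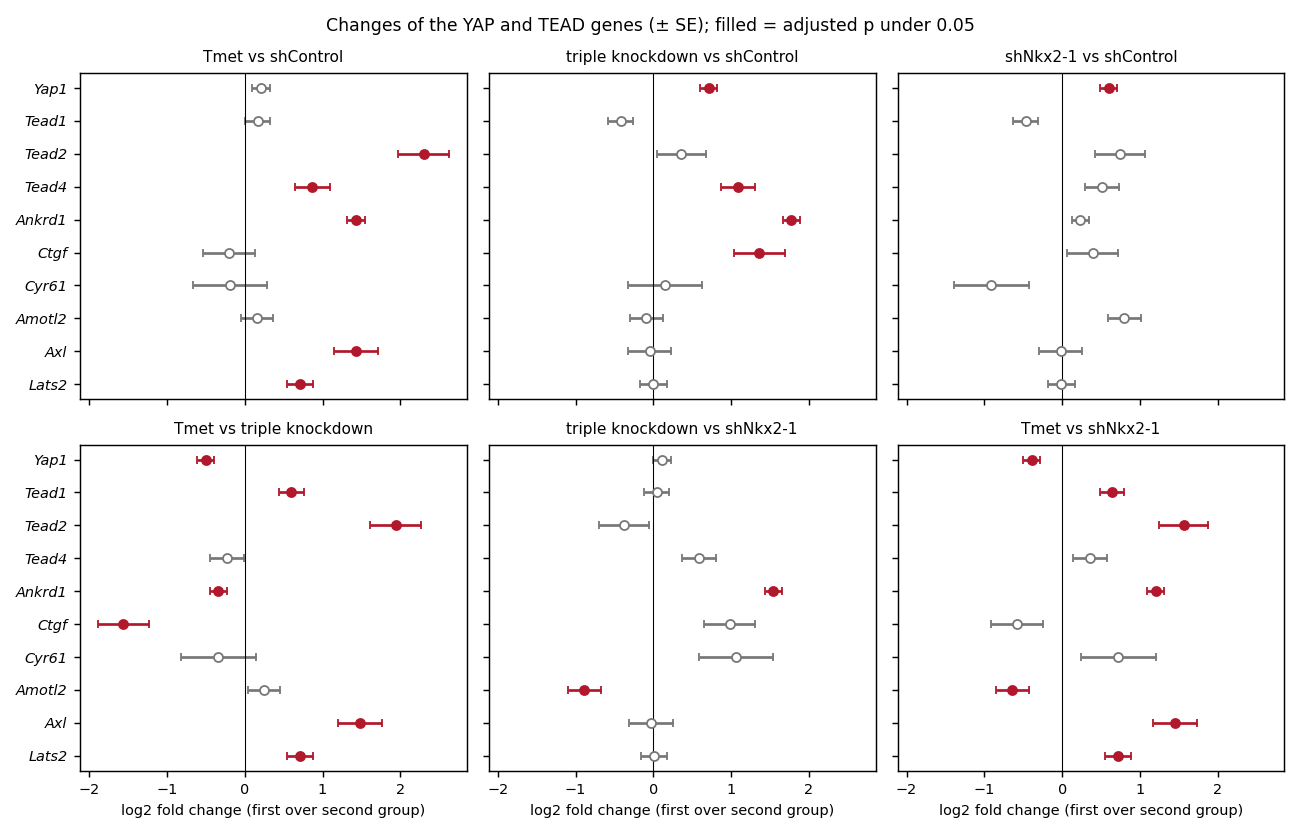
Log2 fold change of each of the 10 genes in the 6 comparisons, with the group named first over the group named after it. Points are the fitted value, bars 1 SE, and filled red points passed an adjusted p of 0.05. Ankrd1 is filled in 5 of the 6 panels and Cyr61 in none.

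Yap1, the coactivator, was highest in both knockdown groups. It had 106 and 124 CPM in Tmet, 165 and 160 CPM in the triple knockdown, 156 and 146 CPM in shNkx2-1, and 95.5 and 103 CPM in shControl (here and below, libraries 1 and 2 of each group). Every knockdown library lay above every Tmet and shControl library, and no groups overlapped. The rise was 0.71 ± 0.11 in log2 fold change (SE, 1.63-fold; adjusted p = 0.00372) in the triple knockdown and 0.6 ± 0.11 (1.52-fold; adjusted p = 0.0341) in shNkx2-1, each over shControl. The triple knockdown over shNkx2-1 was 0.11 ± 0.11 (adjusted p = 0.551) and Tmet over shControl 0.21 ± 0.11 (adjusted p = 0.155), so these neighbours in the order of levels did not pass. Tmet was lower than the triple knockdown by a log2 value of -0.5 ± 0.11 (adjusted p = 0.00798) and than shNkx2-1 by -0.39 ± 0.11 (adjusted p = 0.018).

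The rise of Yap1 in the triple knockdown passed in each fit that left out 1 library (adjusted p from 0.000209 to 0.0491). The rise in shNkx2-1 was lost without any of the 6 Tnonmet libraries, with adjusted p of 0.304 and 0.161 without shControl library 1 or 2, 0.229 and 0.146 without shNkx2-1 library 1 or 2, and 0.091 and 0.0912 without triple knockdown library 1 or 2. It was also lost with the replicate number as a block (adjusted p = 0.06). The log2 value in those fits stayed between 0.54 and 0.65. The fall of Tmet below the triple knockdown was lost without triple knockdown library 1 (adjusted p = 0.0539), and that below shNkx2-1 without shNkx2-1 library 1 (adjusted p = 0.081). Without Tmet library 1, Tmet over shControl passed (0.31, adjusted p = 0.0228).

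Wwtr1, which encodes TAZ, is the other coactivator of the family. It had 267 and 213 CPM in Tmet, 303 and 338 CPM in the triple knockdown, 200 and 232 CPM in shNkx2-1, and 173 and 196 CPM in shControl. The triple knockdown lay above all other libraries, and shNkx2-1 and Tmet overlapped. In the triple knockdown Wwtr1 rose by 0.8 ± 0.15 over shControl (1.74-fold; adjusted p = 0.00621) and by 0.57 ± 0.14 over shNkx2-1 (adjusted p = 0.0278), the second of which was lost without any Tnonmet library (0.0567 to 0.18). Tmet over shControl was 0.38 ± 0.14 (adjusted p = 0.0538) and shNkx2-1 over shControl 0.23 ± 0.14 (adjusted p = 0.471), neither past the threshold. Leaving out shControl library 1 or triple knockdown library 2 ended the call over shControl (adjusted p = 0.0742 and 0.0586). Yap1 and Wwtr1 both had their highest libraries in the triple knockdown.

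**Figure D3:**
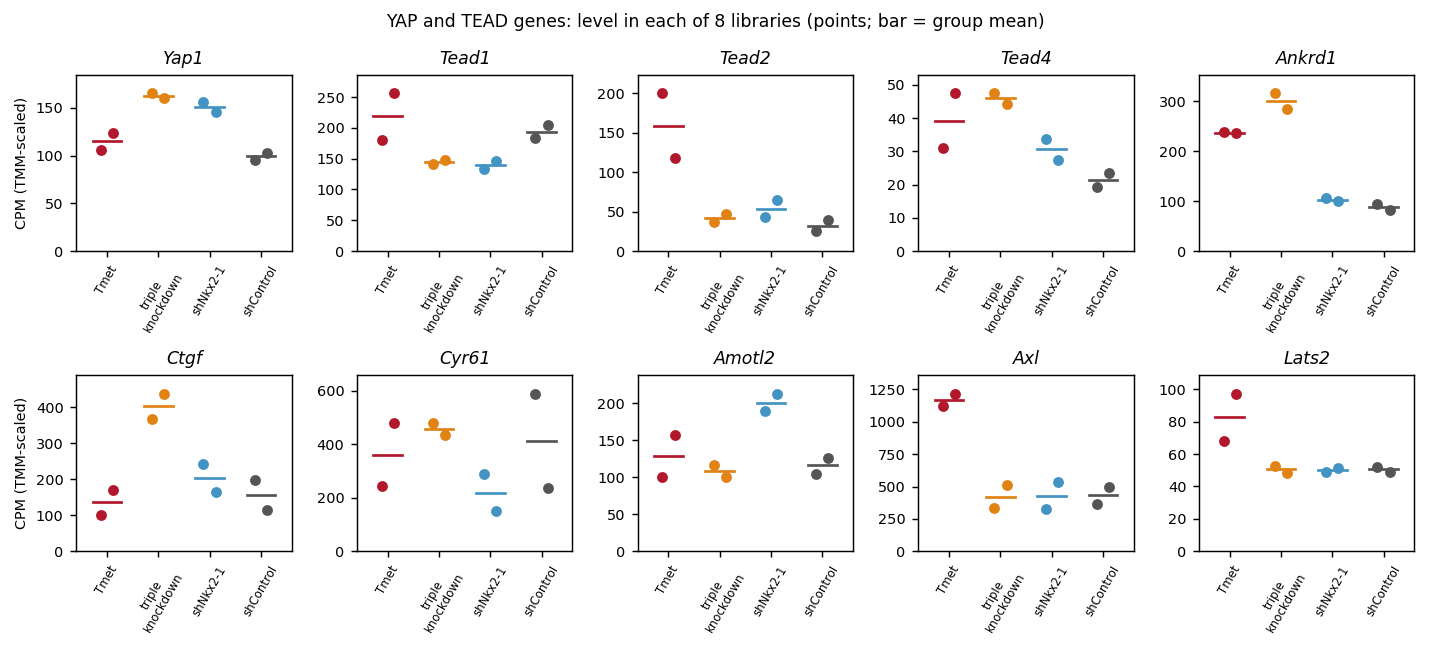
Level of each of the 10 genes in CPM on a linear axis from 0, with each library as a point and the group mean as a bar. The triple knockdown stands highest for Yap1 and Ankrd1, Tmet stands apart for Tead2 and Axl, and shNkx2-1 stands highest for Amotl2.

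The TEAD genes, which encode the DNA-binding partners, did not move as a family. Tead2 had 200 and 118 CPM in Tmet, 36.2 and 46.8 CPM in the triple knockdown, 43.1 and 64.5 CPM in shNkx2-1, and 25.1 and 39.2 CPM in shControl. Both Tmet libraries lay above all others, although they differed from each other by more than any other library pair of this gene, and shControl overlapped the triple knockdown. Tead2 rose in Tmet over shControl by 2.3 ± 0.33 (4.93-fold; adjusted p = 0.00067), over the triple knockdown by 1.94 ± 0.33 (adjusted p = 0.00205) and over shNkx2-1 by 1.56 ± 0.32 (adjusted p = 0.0039). The knockdowns over shControl gave 0.36 ± 0.32 (triple knockdown, adjusted p = 0.46) and 0.74 ± 0.32 (shNkx2-1, adjusted p = 0.271). Its rise over shControl passed in each fit that left out 1 library.

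Tead4 rose in Tmet and in the triple knockdown. It had 31 and 47.4 CPM in Tmet, 47.4 and 44.3 CPM in the triple knockdown, 33.6 and 27.5 CPM in shNkx2-1, and 19.3 and 23.6 CPM in shControl. All 6 libraries of the other groups lay above both shControl libraries, and Tmet overlapped both knockdowns. The rise over shControl was 0.87 ± 0.22 in Tmet (adjusted p = 0.0103) and 1.09 ± 0.22 in the triple knockdown (2.14-fold; adjusted p = 0.00954), while shNkx2-1 gave 0.51 ± 0.22 (adjusted p = 0.265). Without shControl library 1 the calls were lost in both Tmet (adjusted p = 0.083) and the triple knockdown (0.0881), and without triple knockdown library 1 the call of the triple knockdown was lost (0.0639). Without either Tmet library, the triple knockdown over shNkx2-1 (0.59 ± 0.22, adjusted p = 0.0991 in the fit of all libraries) passed (0.00881 and 0.00919), as did shNkx2-1 over shControl (0.0424 and 0.0436). Without Tmet library 1, Tmet over shNkx2-1 passed (0.63, adjusted p = 0.00699), and without Tmet library 2, Tmet under the triple knockdown passed (-0.57, adjusted p = 0.0198).

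Tead1 had its lowest levels in the knockdowns. It had 181 and 256 CPM in Tmet, 141 and 148 CPM in the triple knockdown, 134 and 146 CPM in shNkx2-1, and 183 and 205 CPM in shControl. Every knockdown library lay below every Tmet and shControl library, the knockdown groups overlapped each other, and Tmet spanned shControl. Tmet was higher by 0.6 ± 0.16 than the triple knockdown (adjusted p = 0.0177) and by 0.64 ± 0.16 than shNkx2-1 (adjusted p = 0.0104). Against shControl the values were -0.42 ± 0.16 in the triple knockdown (adjusted p = 0.099) and -0.47 ± 0.16 in shNkx2-1 (adjusted p = 0.172), neither past the threshold. Both passed without Tmet library 1 or 2 (0.00523 and 0.00525 in the triple knockdown, 0.0103 and 0.0103 in shNkx2-1), and without both Tmet libraries (0.00542 and 0.011). The higher level of Tmet was lost without triple knockdown library 1 or 2 (0.103 and 0.0781) or, against shNkx2-1, without shNkx2-1 library 1 (0.0688). Without Tmet library 1, Tmet over shControl passed (0.4, adjusted p = 0.00997).

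Tead3, the remaining TEAD paralogue, was not among the 10 genes. It had 13.8 and 15 CPM in Tmet, 20.4 and 23.4 CPM in the triple knockdown, 21.9 and 22.6 CPM in shNkx2-1, and 18.4 and 18.9 CPM in shControl. Tmet lay below all other libraries, with log2 fold changes of -0.61 ± 0.14 against the triple knockdown (adjusted p = 0.00945), -0.63 ± 0.14 against shNkx2-1 (adjusted p = 0.00611) and -0.38 ± 0.14 against shControl (adjusted p = 0.0529). Without triple knockdown library 2 the fall against the triple knockdown was lost (adjusted p = 0.0769). Tead2, Tead4 and Tead3 thus had different orders across the same libraries.

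Ankrd1, a cardiac ankyrin repeat protein whose gene is a common readout of YAP and TEAD, passed in 5 of the 6 comparisons, all but shNkx2-1 against shControl. It had 238 and 236 CPM in Tmet, 316 and 284 CPM in the triple knockdown, 106 and 101 CPM in shNkx2-1, and 93.9 and 81.8 CPM in shControl. The groups stood in the order triple knockdown, Tmet, shNkx2-1 and shControl with no overlap. The rise over shControl was 1.77 ± 0.11 in the triple knockdown (3.41-fold; adjusted p = 7.4e-05) and 1.43 ± 0.11 in Tmet (2.7-fold; adjusted p = 2.67e-05). In shNkx2-1 it was 0.23 ± 0.11 (adjusted p = 0.318), with an unadjusted 95% interval from -0.02 to 0.49.

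The difference between the knockdowns was itself tested: Ankrd1 in the triple knockdown was higher than in shNkx2-1 by 1.54 ± 0.11 (adjusted p = 0.000132). Tmet was higher than shNkx2-1 by 1.2 ± 0.11 (adjusted p = 6.63e-05) and lower than the triple knockdown by -0.34 ± 0.11 (adjusted p = 0.0335). The rises over shControl passed in each fit that left out 1 library, at an adjusted p of 0.00175 or less in the triple knockdown. The fall of Tmet below the triple knockdown was lost without either shNkx2-1 library (adjusted p = 0.0512 and 0.0515) and without either triple knockdown library (0.196 and 0.0673). In the promoter runs shown above, Ankrd1 is the gene with 2 motif matches, and a link between matches and level was not tested.

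Ctgf encodes a secreted matricellular protein of the CCN family and is a standard YAP target. It had 102 and 171 CPM in Tmet, 368 and 438 CPM in the triple knockdown, 243 and 166 CPM in shNkx2-1, and 199 and 114 CPM in shControl. The triple knockdown lay above all other libraries, and the other 3 groups overlapped each other. Ctgf rose in the triple knockdown over shControl by 1.36 ± 0.33 (2.57-fold; adjusted p = 0.0205), and Tmet was lower than the triple knockdown by -1.56 ± 0.33 (adjusted p = 0.00596). Tmet over shControl was -0.2 ± 0.33 (adjusted p = 0.631) and shNkx2-1 over shControl 0.39 ± 0.33 (adjusted p = 0.608). The triple knockdown over shNkx2-1 was 0.98 ± 0.33 (adjusted p = 0.0731).

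The rise of Ctgf in the triple knockdown was lost without shControl library 2 (1.01, adjusted p = 0.122), without triple knockdown library 1 (0.0664) and without triple knockdown library 2 (0.109). Tmet below the triple knockdown passed in each fit that left out 1 library. The triple knockdown over shNkx2-1 passed without either Tmet library (adjusted p = 0.013 in both fits) and with DESeq2 (0.0108). Without Tmet library 2, Tmet was lower than shNkx2-1 (-1.01, adjusted p = 0.0208).

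Cyr61, the CCN family member next to Ctgf in common use as a YAP readout, gave no call in any comparison in the fit of all libraries. It had 243 and 477 CPM in Tmet, 478 and 435 CPM in the triple knockdown, 287 and 150 CPM in shNkx2-1, and 588 and 235 CPM in shControl. The shControl libraries were 2.5-fold apart and spanned both libraries of the triple knockdown and of Tmet. The log2 fold change over shControl was -0.19 ± 0.48 in Tmet (95% interval -1.29 to 0.91), 0.15 ± 0.48 in the triple knockdown (-0.95 to 1.25) and -0.91 ± 0.48 in shNkx2-1 (-2.03 to 0.2). These intervals, which are not adjusted for multiple testing, reach to 1.25 upward and -2.03 downward. The triple knockdown lay above shNkx2-1 without overlap, by 1.06 ± 0.48 (adjusted p = 0.165), and this passed when only the 4 libraries compared were fitted (0.0134). The SE of 0.48 is above that of any other gene of the set.

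Amotl2, an angiomotin-like scaffold that binds YAP and is also its target, was highest in shNkx2-1. It had 101 and 157 CPM in Tmet, 117 and 99.8 CPM in the triple knockdown, 189 and 213 CPM in shNkx2-1, and 105 and 126 CPM in shControl. Both shNkx2-1 libraries lay above all others, and the other 3 groups overlapped. The triple knockdown was lower than shNkx2-1 by -0.89 ± 0.21 (0.54-fold; adjusted p = 0.0211), and Tmet was lower than shNkx2-1 by -0.64 ± 0.21 (adjusted p = 0.0296). shNkx2-1 over shControl was 0.8 ± 0.21 (1.74-fold; adjusted p = 0.0874), which did not pass. The triple knockdown over shControl was -0.09 ± 0.21 (adjusted p = 0.79). Amotl2 and Ankrd1 thus moved in opposite directions between the knockdowns.

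Several of the Amotl2 calls depended on the libraries in the fit. The fall in the triple knockdown below shNkx2-1 was lost without shNkx2-1 library 1 or 2 (adjusted p = 0.0616 and 0.123) or triple knockdown library 1 or 2 (0.078 and 0.151). The fall in Tmet below shNkx2-1 was lost without shNkx2-1 library 1 or 2 (0.056 and 0.123) or Tmet library 1 (0.0553). The rise in shNkx2-1 over shControl passed without Tmet library 1 or 2 (0.00353 and 0.00354), with DESeq2 (0.0106) and with no filter on low counts (0.0333). Without Tmet library 1, Tmet also passed over shControl (0.44, adjusted p = 0.0218) and over the triple knockdown (0.53, adjusted p = 0.0103).

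Lats2 encodes a Hippo kinase that restrains YAP and is itself reported to be induced by it. It had 68 and 97.2 CPM in Tmet, 52.7 and 48.3 CPM in the triple knockdown, 48.8 and 51.2 CPM in shNkx2-1, and 52 and 49 CPM in shControl. The 6 Tnonmet libraries lay within 48.3 and 52.7 CPM, and both Tmet libraries lay above them. The rise in Tmet was 0.71 ± 0.17 over shControl (1.64-fold; adjusted p = 0.00822), 0.71 ± 0.17 over the triple knockdown (0.0104) and 0.72 ± 0.17 over shNkx2-1 (0.00746). For the knockdowns over shControl the 95% intervals were -0.4 to 0.4 in the triple knockdown and -0.41 to 0.38 in shNkx2-1. The rise in Tmet was lost over shControl without shControl library 2 (adjusted p = 0.0628), over the triple knockdown without triple knockdown library 2 (0.0803) and over shNkx2-1 without shNkx2-1 library 1 (0.0507).

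Axl encodes a receptor tyrosine kinase of the TAM family that binds the ligand GAS6 and is linked to invasion and drug resistance in lung cancer. It had 1123 and 1216 CPM in Tmet, 331 and 509 CPM in the triple knockdown, 323 and 534 CPM in shNkx2-1, and 368 and 500 CPM in shControl. Both Tmet libraries were above all others, and the 3 Tnonmet groups overlapped each other. The rise in Tmet was 1.43 ± 0.28 over shControl (2.69-fold; adjusted p = 0.00329), 1.48 ± 0.28 over the triple knockdown (0.00374) and 1.45 ± 0.28 over shNkx2-1 (0.00304). Over shControl, the triple knockdown gave -0.05 ± 0.28 (95% interval -0.69 to 0.59) and shNkx2-1 gave -0.02 ± 0.28 (-0.66 to 0.62). The 3 rises passed in each fit that left out 1 library.

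Tyro3 and Mertk encode the other TAM receptors. Tyro3 had 69.2 and 44.7 CPM in Tmet, 14.2 and 16.5 CPM in the triple knockdown, 9.29 and 9.91 CPM in shNkx2-1, and 6.13 and 8.87 CPM in shControl. It rose over shControl by 2.91 ± 0.26 in Tmet (adjusted p = 5.73e-05) and by 1.03 ± 0.26 in the triple knockdown (0.0241). The call in the triple knockdown was lost without shControl library 1 (0.178), triple knockdown library 1 (0.0748) or triple knockdown library 2 (0.131). Mertk had 7.76 and 3.38 CPM in Tmet, 1.39 and 0.769 CPM in the triple knockdown, 8.75 and 7.49 CPM in shNkx2-1, and 10.4 and 9.34 CPM in shControl, and it fell in the triple knockdown against shControl by -3.18 ± 0.45 (adjusted p = 0.00216). Like Axl, both were higher in Tmet than in the triple knockdown, Tyro3 by 1.89 ± 0.25 (adjusted p = 0.000608) and Mertk by 2.35 ± 0.46 (0.00397). Gas6, the ligand, named after its values were seen, stayed at 0.577 CPM or less in every library.

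Among the CCN relatives of Ctgf and Cyr61, Wisp1 had 15.5 and 17.5 CPM in Tmet, 7.53 and 9.36 CPM in the triple knockdown, 3.34 and 2.14 CPM in shNkx2-1, and 0.4 and 0.568 CPM in shControl. The groups did not overlap and stood in that order, a different one from Ctgf. Wisp1 rose over shControl by 5.05 ± 0.34 in Tmet (adjusted p = 1.16e-05), 4.08 ± 0.34 in the triple knockdown (0.000194) and 2.46 ± 0.36 in shNkx2-1 (0.0156). Nov was at 0 counts in shControl and was at least 22.2-fold higher in Tmet and at least 2.44-fold higher in the triple knockdown, taking 3 counts in each shControl library as the floor. The triple knockdown held 14 counts of Nov, and its call was lost without shControl library 1 or 2 (0.0583 and 0.0668) or triple knockdown library 1 (0.0639). Of 9 relatives and ligands listed, 6 were tested, and against shControl 4 rose in Tmet, 3 rose and 1 fell (Mertk) in the triple knockdown, and 1 rose in shNkx2-1. Of all tested genes, 57.3% passed in Tmet, 24.4% in the triple knockdown and 3.55% in shNkx2-1, so that the Tmet count is near its background. Their median log2 fold changes over shControl were 3.98, 1.54 and 1.4 (3.69, 1.16 and 0.68 with genes at 0 counts set to their bound), beside 0.02, 0 and 0 over all tested genes. The filter on low counts could keep a gene on the counts of a single group. A gene at 0 in shControl, such as Nov, was thus tested only through groups where it was high. The counts of rises and these medians are therefore partly set by the filter.

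A wider target list of 22 genes in common use as a YAP and TAZ signature, which includes Ankrd1, Ctgf, Cyr61, Amotl2, Axl and Lats2, moved in both directions. In Tmet over shControl 11 rose and 4 fell (median 0.67), in the triple knockdown 6 rose and 3 fell (median 0.33), and in shNkx2-1 3 rose and none fell (median 0.33). Without the 6 shared genes the counts were 8 and 4 of 16 in Tmet (median 0.74), 4 and 3 in the triple knockdown (median 0.52), and 3 and 0 in shNkx2-1 (median 0.36). In Tmet against the triple knockdown 8 of the 22 rose and 6 fell (median 0.25), and in the triple knockdown against shNkx2-1 4 rose and 5 fell (median 0.02). The background shares given above for each comparison apply here too.

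Igfbp3, a secreted binding protein for insulin-like growth factors, rose in all 3 groups over shControl. It had 481 and 310 CPM in Tmet, 117 and 91.6 CPM in the triple knockdown, 46 and 39.5 CPM in shNkx2-1, and 11.7 and 9.39 CPM in shControl, with no overlap. The rise over shControl was 5.24 ± 0.27 in Tmet (adjusted p = 3.03e-06), 3.31 ± 0.25 in the triple knockdown (0.000137) and 2.03 ± 0.25 in shNkx2-1 (0.00851). Tgfb2, a TGF-beta ligand, had 7.27 and 10.7 CPM in Tmet, 8.26 and 6.98 CPM in the triple knockdown, 14.9 and 24.7 CPM in shNkx2-1, and 2.67 and 4.59 CPM in shControl. It was highest in shNkx2-1, with a rise over shControl of 2.43 ± 0.36 (adjusted p = 0.0161), and Amotl2 was highest in the same libraries.

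Other genes of the list were called in the same direction over shControl in Tmet and the triple knockdown. Rbms3, an RNA-binding protein, rose over shControl by 2.36 ± 0.21 in Tmet (adjusted p = 5.12e-05) and by 1.88 ± 0.21 in the triple knockdown (0.000697). Arhgef17, a guanine nucleotide exchange factor, rose by 1.58 ± 0.2 in Tmet (0.000313) and by 1.23 ± 0.19 in the triple knockdown (0.00349). The forkhead factor Foxf2 had a log2 fold change of -1.31 ± 0.14 in Tmet (0.000157) and -1.54 ± 0.14 in the triple knockdown (0.000314). None of these 3 passed between Tmet and the triple knockdown, whereas Nt5e and F3 did. The surface enzyme Nt5e (CD73) had 6.5 and 2.67 CPM in Tmet, 94 and 99.3 CPM in the triple knockdown, 43.1 and 42.6 CPM in shNkx2-1, and 54.1 and 52.6 CPM in shControl. Tissue factor, F3, had 19.7 and 27.4 CPM in Tmet, 165 and 208 CPM in the triple knockdown, 138 and 111 CPM in shNkx2-1, and 139 and 95.8 CPM in shControl. Nt5e and F3 were lower in Tmet than in the triple knockdown by -4.4 ± 0.33 (adjusted p = 3.35e-05) and -2.98 ± 0.25 (5.7e-05), the same direction as Ctgf.

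**Figure D4:**
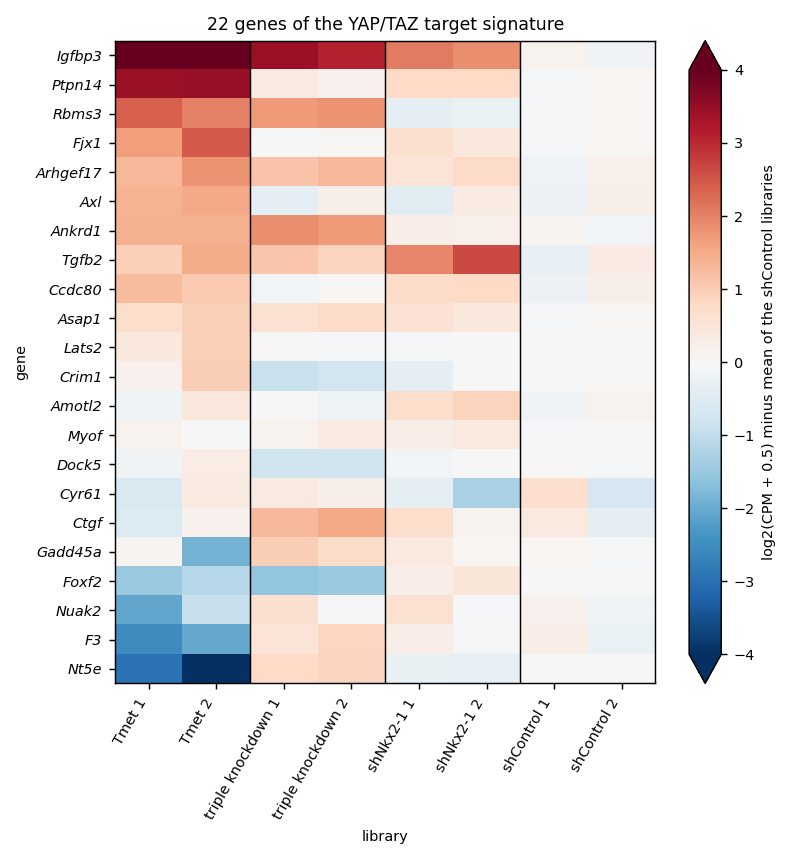
Level of each of the 22 signature genes in the 8 libraries, as log2(CPM + 0.5) minus the mean of the shControl libraries, sorted by Tmet. Red is higher and blue lower than shControl, and the colours end at 4 in either direction, so that Igfbp3 in Tmet, fitted at 5.24, lies past the scale.

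Among 11 further reported YAP targets, 9 were tested, and over shControl 7 rose and 1 fell in Tmet (median 2.92), 4 rose and 1 fell in the triple knockdown (median 1.18), and none passed in shNkx2-1 (median 0.17). Over all tested genes 57.3%, 24.4% and 3.55% passed in these comparisons, with medians of 0.02, 0 and 0. The filter on low counts could keep a gene on the counts of a single group. Fstl1, one of those that rose in Tmet, held 903 counts there and 2 in the triple knockdown. The Tmet count and median may therefore be partly set by the filter. Col8a1, a short-chain collagen, had 70.7 and 67.3 CPM in Tmet, 24.4 and 28.5 CPM in the triple knockdown, 3.46 and 2.59 CPM in shNkx2-1, and 2.07 and 2.32 CPM in shControl. Inhba, a subunit of activin, had 58.9 and 103 CPM in Tmet, 40.3 and 41.1 CPM in the triple knockdown, 7.96 and 7.26 CPM in shNkx2-1, and 11.4 and 9.85 CPM in shControl. Like Ankrd1, both were higher in the triple knockdown than in shNkx2-1, Col8a1 by 3.13 ± 0.19 (adjusted p = 5.05e-05) and Inhba by 2.42 ± 0.26 (0.00077). Hbegf, an EGF receptor ligand, rose over shControl by 2.51 ± 0.28 in Tmet (0.00018) and by 1.18 ± 0.27 in the triple knockdown (0.0169). The Hbegf call in the triple knockdown was lost without shControl library 2 (0.0972), triple knockdown library 1 (0.102) or triple knockdown library 2 (0.0612).

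Thbs1, which encodes the matrix protein thrombospondin 1, went against its list. It had 528 and 1073 CPM in Tmet, 98.5 and 77.6 CPM in the triple knockdown, 809 and 1767 CPM in shNkx2-1, and 2873 and 3378 CPM in shControl. The triple knockdown lay below all other libraries, with a fall of -5.15 ± 0.48 against shControl (adjusted p = 0.000308). In the same libraries Ctgf, another secreted matricellular target, was at its highest. Tmet was higher than the triple knockdown by 3.18 ± 0.44 (adjusted p = 0.000755).

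Of the Hippo kinases and their upstream regulators, 24 of 25 listed were found under their own symbol or a synonym and all 24 were tested. Over shControl 10 rose and 7 fell in Tmet (median 0.03), 2 rose and 1 fell in the triple knockdown (median 0.02), and 1 rose in shNkx2-1 (median 0.04), beside the background shares given above. The median in the knockdowns was -0.01 (triple knockdown) and 0.01 (shNkx2-1) with genes near 0 counts at their bound. The list's medians thus lay close to that of all genes in each comparison. Among the 10 that rose in Tmet, Fat4, Wtip and Dchs1 passed the filter on low counts only through Tmet, so they could be called there only as rises.

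Ptpn14, a phosphatase that holds YAP in the cytoplasm and is on both the regulator and the signature list, had 86.4 and 88.3 CPM in Tmet, 9.7 and 8.46 CPM in the triple knockdown, 13.4 and 13.4 CPM in shNkx2-1, and 7.07 and 7.79 CPM in shControl. It rose over shControl by 3.55 ± 0.14 in Tmet (11.7-fold; adjusted p = 8.95e-07) and by 0.85 ± 0.14 in shNkx2-1 (0.021). Fat4, an atypical cadherin, had 33.9 and 42 CPM in Tmet and at most 0.482 CPM elsewhere (Tmet over shControl 7.48 ± 0.4, adjusted p = 3.61e-06). Its relative Fat1 had 131 and 235 CPM in Tmet, 376 and 346 CPM in the triple knockdown, 544 and 738 CPM in shNkx2-1, and 789 and 889 CPM in shControl. Fat1 fell in the triple knockdown by -1.22 ± 0.26 (adjusted p = 0.0124). These atypical cadherins thus stood in opposite orders across Tmet and shControl.

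Among the kinases, Lats1 fell in Tmet, where Lats2 rose. Lats1 had 59.8 and 74.5 CPM in Tmet, 116 and 128 CPM in the triple knockdown, 104 and 115 CPM in shNkx2-1, and 111 and 121 CPM in shControl, with a log2 fold change in Tmet over shControl of -0.79 ± 0.14 (adjusted p = 0.0017). Lats1 was named beside Lats2 after its values were seen. Map4k4, a kinase that can activate LATS, rose over shControl by 1.37 ± 0.14 in Tmet (adjusted p = 0.000132) and by 0.66 ± 0.14 in the triple knockdown (0.0126), and the upstream kinase Taok3 fell in Tmet by -1.58 ± 0.15 (8.43e-05). The scaffold Amotl1, a relative of Amotl2, had 104 and 91.4 CPM in Tmet, 68 and 81.3 CPM in the triple knockdown, 54.1 and 57.2 CPM in shNkx2-1, and 36.6 and 48.2 CPM in shControl. It rose in the triple knockdown by 0.81 ± 0.16 (adjusted p = 0.0097), unlike Amotl2, for which that comparison gave -0.09.

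In the triple knockdown the calls of these regulators depended on single libraries. That of Amotl1 was lost without shControl library 1 (adjusted p = 0.0894) or triple knockdown library 2 (0.0826). That of Map4k4 was lost without either shControl library (0.0836 and 0.0813) or either triple knockdown library (0.081 and 0.0696), and that of Fat1 likewise (0.0528, 0.0705, 0.0723 and 0.092). In shNkx2-1, leaving out any library of shNkx2-1 or shControl ended the calls of Ptpn14, Igfbp3, Tgfb2 and Wisp1, with adjusted p of 0.0581 to 0.228, and leaving out either triple knockdown library ended that of Ptpn14 (0.0507 and 0.0509). Those fits kept the direction of each.

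Of 6 coactivator and TEAD partner genes outside the set, 4 were tested, and over shControl Vgll3 rose and Vgll4 fell in Tmet, Wwtr1 rose in the triple knockdown, and none passed in shNkx2-1. The shares called, 2 of 4 in Tmet and 1 of 4 in the triple knockdown, are near the 57.3% and 24.4% of all tested genes. Vgll3 passed the filter on low counts only through Tmet, so it could be called there only as a rise. VGLL4 competes with YAP for TEAD. Vgll4 had 19.9 and 14.2 CPM in Tmet, 31 and 24.4 CPM in the triple knockdown, 31.6 and 31.3 CPM in shNkx2-1, and 26.9 and 24.8 CPM in shControl, a change in Tmet over shControl of -0.6 ± 0.19 (adjusted p = 0.0289). That call was lost without shControl library 1 (0.127), shControl library 2 (0.0766) or Tmet library 2 (0.0798). Vgll3 had 27 and 223 counts in Tmet and 1 in each shControl library, a ratio of 113 over the summed counts with a 95% counting interval of 30.9 to 935. The Tmet libraries were thus far apart, and the fitted log2 value was 6.61 with all libraries and 4.5 without Tmet library 2.

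Across the 8 libraries, transcripts among the 3 most like Yap1 by Pearson correlation of log2(CPM + 0.5) included Vps54 (r = 0.9802) and Plod1 (r = 0.9758), and those most like Ctgf were Bok (r = 0.9741), Arih2 (r = 0.9697) and Pwwp2a (r = 0.9571). Vps54, a subunit of a vesicle tethering complex, averaged 52.5 ± 3.25 CPM in Tmet, 73.6 ± 0.543 CPM in the triple knockdown, 72.2 ± 5.14 CPM in shNkx2-1 and 48.9 ± 0.239 CPM in shControl (SD, n = 2 each), the order of Yap1. Bok, a BCL2 family member, averaged 53.1 ± 4.99 CPM in Tmet, 85.3 ± 0.252 CPM in the triple knockdown, 63 ± 6.63 CPM in shNkx2-1 and 52.1 ± 6.42 CPM in shControl. These are among the 3 highest values over the 13318 genes tested, after leaving out those with predicted or clone names. They rest on 8 points that share 4 group means, and are given as a description. No other gene of the YAP and TEAD set was among them.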

How the data were processed

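The authors deposited 1 table of estimated counts (expected counts) per gene and library. The submitters' processing notes name RSEM 1.2.12, Bowtie 1.0.1 and the build mm9. Reads were single-end, 45 nt, from TruSeq libraries of polyadenylated RNA, per the labels' protocols. Neither the annotation nor the strandedness of counting is named there. Reads that fit several genes are shared out by RSEM, so 34.7% to 38% of the values in a library were not whole.

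Expected counts were rounded. Genes were kept with edgeR's filterByExpr (minimum count 10, minimum total 15). A single edgeR 4.0.16 quasi-likelihood fit in R 4.3.3, with TMM factors and no covariate, covered the 8 libraries (4 residual degrees of freedom, prior 3.94, common biological coefficient of variation 15.6%). It gave 6 two-sided contrasts and a test across the groups, with Benjamini-Hochberg adjustment over 13318 genes. The 95% intervals of log2 fold changes are not adjusted, and counting intervals and the floor of 3 counts cover counting error only. DESeq2 1.42.0, limma-voom (limma 3.58.1), other scalings, no filter, a replicate block, the compared libraries alone and leaving out each library were alternatives, and leaving out both Tmet libraries was added after seeing the data. The scripts' test was checked on simulated data.

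The 10 genes and 10 gene lists were chosen with earlier results of these data known. Named beside the 10 genes are Wwtr1, Tead3, the shRNA targets, up to 4 genes per list and comparison with the smallest p past the threshold, and the 3 genes most like Yap1 or Ctgf. Not all of them appear in the text, and 1 of the genes most like Yap1 is not reported here. Duplicate libraries differed by more than counting noise in each group (chi-square per gene from 8.36 to 60).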

Additional observations from a re-analysis of the deposited data

How the results depend on the processing

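With 2 libraries a group, single libraries decided many calls. Leaving out each library in turn gave 0 to 4 of the 10 genes called in shNkx2-1 over shControl (1 with all libraries), 2 to 5 in the triple knockdown over shControl (4), 4 to 8 in Tmet over shControl (5), 1 to 4 in the triple knockdown over shNkx2-1 (2), 4 to 8 in Tmet over the triple knockdown (7), 3 to 8 in Tmet over shNkx2-1 (7) and 7 to 9 across the groups (9). The same fits called 0 to 1998 of all tested genes in shNkx2-1 over shControl (473), 1248 to 5459 in the triple knockdown over shControl (3243), 5533 to 8882 in Tmet over shControl (7628), 1024 to 4994 in the triple knockdown over shNkx2-1 (2711), 3962 to 7901 in Tmet over the triple knockdown (6404) and 5626 to 8973 in Tmet over shNkx2-1 (7743). The 0 is edgeR's count without shControl library 1, where 1317 genes had an unadjusted p under 0.05, and DESeq2 was not run without single libraries.

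For shNkx2-1 over shControl, 2 of the 10 genes were called with no filter, 2 with DESeq2, 3 from the 4 compared libraries alone and 4 without both Tmet libraries, and all genes called were 908 with DESeq2, 1779 from the 4 libraries and 2006 without Tmet. For the triple knockdown over shControl, 5606 genes were called from the 4 libraries and 5424 without Tmet. For the triple knockdown over shNkx2-1, 5 of the 10 genes and 4518 of all genes were called from the 4 libraries, and 4 and 4958 without Tmet. Tmet over the triple knockdown gave 4 of the 10 genes from the 4 libraries. The calls lost there were Tead1 (adjusted p = 0.0665), Ankrd1 (0.0849) and Lats2 (0.052), and outside the set Tead3 (0.0612). In Tmet over shNkx2-1 the fit of the 4 libraries lost Yap1 (0.0782) and Amotl2 (0.0716). In Tmet over shControl it lost Vgll4 (0.082). The cause was not tested.

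With the replicate block, shNkx2-1 over shControl gave 0 of the 10 genes (3 at an unadjusted p under 0.05; 1 by edgeR without the block and 2 by DESeq2) and 294 of all genes, and Yap1 had an adjusted p of 0.06. Same-numbered libraries deviated together at r of 0.232 to 0.326 among Tnonmet groups and -0.239 to -0.056 against Tmet, and the labels do not say what the numbers mark, so the block was kept as an alternative only.

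Values with no call changed sign in some settings. The log2 fold change of Lats2 in the triple knockdown over shControl was 0 with DESeq2 size factors, DESeq2 or the 4 libraries alone, -0.07 without TMM and -0.01 without the filter, and over shNkx2-1 it was -0.03 without TMM. Leaving out 1 library gave these ranges. In shNkx2-1 over shControl, Lats2 had -0.06 to 0.03 and Axl -0.43 to 0.29. In the triple knockdown over shControl, Lats2 had -0.06 to 0.06, Cyr61 -0.37 to 0.95, Axl -0.39 to 0.23 and Amotl2 -0.22 to 0.04. In Tmet over shControl, Ctgf had -0.63 to 0.24, Cyr61 -0.76 to 0.59, Amotl2 -0.2 to 0.44 and Tead1 -0.1 to 0.4. In the triple knockdown over shNkx2-1, Lats2 had -0.05 to 0.08, Axl -0.37 to 0.37, Tead1 -0.02 to 0.11 and Tead3 -0.13 to 0.07. In Tmet over the triple knockdown, Cyr61 had -0.91 to 0.06, Amotl2 -0.11 to 0.53 and Tead4 -0.57 to 0.04. In Tmet over shNkx2-1, Wwtr1 had -0.03 to 0.3.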

Other observations

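Libraries 1 and 2 of shControl differed more for Cyr61 and Ctgf than for the other 8 genes, and the sign of the difference was not the same in each group. The log2 difference of library 1 minus library 2 for Cyr61 was -0.97 in Tmet, 0.14 in the triple knockdown, 0.93 in shNkx2-1 and 1.32 in shControl. For Ctgf it was -0.75 in Tmet, -0.25 in the triple knockdown, 0.55 in shNkx2-1 and 0.8 in shControl. The other 8 genes lay between -0.72 (Axl in shNkx2-1) and 0.76 (Tead2 in Tmet). Ankrd1, another common readout of YAP, differed by at most 0.2 in any group.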
